A study of Homo sapiens with 6 samples.

Results

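Among 18701 genes on the arrays, 7 were followed as a set. These were sestrins SESN1, SESN2 and SESN3, the stress protein gene DDIT4, the tuberous sclerosis genes TSC1 and TSC2 and the AMPK subunit gene PRKAB1. The set was chosen by name with earlier results of these data known. Its shares beside those of all genes therefore describe it and are not an independent test. All 7 passed the filter on dim genes that left 14025 genes to test. The cells were HT29-tsp53, a derivative of HT-29, a line from a human colorectal adenocarcinoma, and every sample carried a mouse V135A p53 transgene whose product works at 32 °C and not at the restrictive temperature. Control cells were never moved to 32 °C (p53 off), a second group was kept 16 h at 32 °C (p53 on), and the last group had the same 16 h followed by 6 h back at the restrictive temperature (p53 on then off, called recovery here). Each group had n = 2 Affymetrix Gene 1.0 ST arrays, one from experiment 1 and one from experiment 2 as numbered in the labels. For that higher temperature the descriptions state 38 °C and the protocols 37 °C, and 1 label field of the recovery samples gives 32 °C for the last step. The sources used here name neither the promoter of the transgene nor whether the line is 1 clone. No cells without the transgene were analysed here, so the shift in temperature and active p53 cannot be told apart.

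mTORC1 is a kinase complex that drives growth and protein synthesis when nutrients and growth factors are plentiful, and that is switched on at the lysosome by the Rag GTPases and the GTPase RHEB. TSC1 and TSC2 form the complex that inactivates RHEB. Sestrins bind GATOR2 and so hold back the Rag branch, DDIT4 (also called REDD1) acts upstream of the TSC complex, and AMPK, the cellular energy sensor of which PRKAB1 encodes the beta-1 subunit, phosphorylates TSC2 and the mTORC1 subunit raptor. SESN1, SESN2, DDIT4, PRKAB1 and TSC2 have all been described as p53-responsive genes in other systems, which is background and not a result of these arrays.

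Values are log2 signals, and a gene's value on an array is the median of its probe sets, which are groups of probes that mostly read single exons. Because probes differ in brightness, differences are taken between arrays for 1 gene and not between genes. The exception is the marker levels below, which are set against 1 filter and summed, and so give only a rough guide to the cells present. As a check of the labels, the p53 targets CDKN1A and MDM2, outside the set, rose in p53 on over p53 off by 3.21 and 3.52 log2 units (limma, adjusted p = 0.00334 and 0.00174). All 8 markers of intestinal epithelium were above the dim filter of 3.62, with means from 4.35 for the transcription factor CDX2 to 12.46 for the keratin KRT18. Of the other cell types, PTPRC, which defines leukocytes, averaged 1.70, and DCN and LUM, of fibroblasts, averaged 2.03 and 2.30, all under the filter. Above it were 3 of 5 measured leukocyte, 4 of 6 fibroblast and 1 of 3 endothelial markers. The leukocyte list included LYZ at 11.21, a lysozyme gene that intestinal epithelium also expresses. Summed log2 signals over p53 off, p53 on and recovery were 27.00 to 27.31, 27.01 to 28.42 and 27.49 to 28.25 for leukocyte markers and 22.03 to 22.61, 22.77 to 22.83 and 22.88 to 23.45 for fibroblast markers. For endothelial markers they were 10.32 to 11.07, 10.03 to 10.24 and 10.19 to 10.45. Between p53 on and p53 off the leukocyte sums overlapped. The fibroblast sums were higher in p53 on and the endothelial sums lower, both without overlap, but these sums included markers under the filter. LUM was 1.05 and 0.24 higher in p53 on in experiments 1 and 2, and DCN was 0.10 and 0.44 lower. The 4 fibroblast markers above the filter differed by -0.07 to 0.10. Of the endothelial markers, CDH5 and VWF were under the filter, and PECAM1 was at -0.40. No marker was called in any comparison in either fit, and their part in the results was not tested. In bulk samples such as these, fewer cells expressing a gene and less of its RNA per cell cannot be told apart.

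The promoter windows of RefSeq (build GRCh38.p14, 250 bases before to 50 after each annotated start) were searched for the letters of response elements on both strands, because 4 of the genes moved together. A window was found for each of the 7 genes, with 3 start sites for SESN1 and 2 for TSC2. The p53 half-site, a run of 10 bases with purines, a C, 2 A or T bases, a G and pyrimidines, occurred without a mismatch in only 1 of these 10 windows, at the most downstream start of SESN1 on the minus strand of chromosome 6, between positions -49 and -40. It is shown here in capitals with the 10 bases on either side, written along the gene's strand; the 10 bases after it had 3 mismatches to a further half-site and the 10 before it had 4.

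SESN1 downstream start, minus strand, chr6:109009018-109009047: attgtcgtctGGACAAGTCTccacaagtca

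The same half-site was present in 6.63% of 35116 promoter windows of the genome. No member window held a full p53 site (a pair of half-sites at most 13 bases apart with up to 2 mismatches), which 2.93% of all windows did. With 10 member windows, having none cannot be told apart from that share, and sequence outside the windows was not searched. The windows of DDIT4 and SESN2 up to the start are shown next, as examples with and without such letters among the genes that moved. Capitals in DDIT4 mark the hypoxia response element cores ACGTG and GCGTG, found in 21.4% and 36.5% of all windows on either strand. The SESN2 window held neither core, nor the amino acid response letters TGATGNAA (3.62% of windows), so it has no capitals. The hypoxia cores were not particular to DDIT4 or to genes that moved: GCGTG also occurred in windows of SESN1 and PRKAB1, and ACGTG in one of TSC2, which was not called and held the only TGATGNAA match of the set.

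DDIT4 promoter, plus strand, chr10:72273674-72273923: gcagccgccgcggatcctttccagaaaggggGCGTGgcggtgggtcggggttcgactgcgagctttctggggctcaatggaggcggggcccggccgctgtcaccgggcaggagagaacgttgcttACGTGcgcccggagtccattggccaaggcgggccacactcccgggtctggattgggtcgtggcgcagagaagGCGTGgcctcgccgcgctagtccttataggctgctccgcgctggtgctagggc
SESN2 promoter, plus strand, chr1:28259268-28259517: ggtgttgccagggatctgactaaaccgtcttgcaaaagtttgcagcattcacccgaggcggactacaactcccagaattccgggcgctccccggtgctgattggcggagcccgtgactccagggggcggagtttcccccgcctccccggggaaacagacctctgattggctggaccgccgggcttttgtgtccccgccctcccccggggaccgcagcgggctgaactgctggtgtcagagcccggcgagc

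These matches describe letters in a window; whether any of them is bound was not measured.

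The first comparison asks what 16 h with p53 on did to these genes. DDIT4 and PRKAB1 rose in p53 on over p53 off, both without and with a replicate block for the experiment number. SESN1 and SESN2 rose in the blocked fit and missed the threshold without it. Gene positions below are RefSeq's on GRCh38.p14. The 4 differences lay between 1.53 and 2.77 log2 units. SESN3, TSC1 and TSC2 were not called in either fit. So 2 of 7 genes were called higher, against 0.898% of all genes tested, and 4 of 7 with the block, against 5.18%. None was called lower (0.585% of all genes, and 6.28% with the block).

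SESN1 (chr6:108984309-109094846) encodes a GATOR2-binding sestrin. It stood at 5.10 and 4.62 in p53 off, 8.18 and 7.09 in p53 on, and 5.23 and 3.90 in recovery, in experiments 1 and 2. Both p53 on arrays lay above all the others, and the experiments were more than 1 unit apart in p53 on and in recovery, with experiment 2 lower. The difference between p53 on and p53 off was 3.08 in experiment 1 and 2.47 in experiment 2. The fit gave 2.77 ± 0.51 (SE, n = 2 per group), a 6.84-fold level, with adjusted p = 0.0582 in limma and adjusted p = 0.000367 with the block. It ranked 19th from the highest of the 14025 differences.

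SESN2 (chr1:28259518-28282491), a leucine-binding sestrin, stood at 5.29 and 5.81 in p53 off, 7.03 and 7.13 in p53 on, and 5.06 and 5.62 in recovery. The groups p53 on and p53 off did not overlap, and the p53 on arrays lay closer together than those of the remaining groups. SESN2 was 1.53 ± 0.28 higher in p53 on than in p53 off, a 2.89-fold level (limma, adjusted p = 0.0556, and adjusted p = 0.00235 with the block). SESN3 (chr11:95165513-95232475), a sestrin known chiefly as a FOXO target, stood at 4.95 and 5.99 in p53 off, 5.61 and 5.54 in p53 on, and 5.07 and 5.58 in recovery. Its groups overlapped, and p53 on minus p53 off was 0.66 in experiment 1 and -0.45 in experiment 2. The 95% interval of the SESN3 difference was -0.75 to 0.96, or -0.47 to 0.68 with the block, so a change of up to about 1 unit in either direction was not resolved.

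DDIT4 (chr10:72273924-72276036), which restrains mTORC1 under hypoxia and other stresses, stood at 5.55 and 5.72 in p53 off, 8.29 and 7.70 in p53 on, and 6.34 and 5.31 in recovery. Both p53 on arrays were above the rest, and recovery in experiment 1 was the highest of the remaining arrays. The difference between p53 on and p53 off was 2.36 ± 0.37, a 5.14-fold level (limma, adjusted p = 0.0422, and adjusted p = 0.00159 with the block). This call was lost without the filter on dim genes (adjusted p = 0.0501) and whenever an array of p53 off or p53 on was left out (adjusted p between 0.0924 and 0.249).

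PRKAB1 (chr12:119667952-119681619), the AMPK beta-1 subunit gene, stood at 7.19 and 7.40 in p53 off, 9.55 and 9.65 in p53 on, and 6.98 and 7.47 in recovery. Its p53 on arrays were more than 2 units above all others, and the 2 experiments gave nearly the same difference, 2.37 and 2.25. At 2.31 ± 0.23 and a 4.96-fold level, the rise of PRKAB1 had the smallest adjusted p of the set (limma, adjusted p = 0.0118, and adjusted p = 0.000321 with the block). Leaving out 1 array of p53 off or p53 on ended the call without the block (adjusted p between 0.0623 and 0.137), with differences between 2.21 and 2.41.

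TSC1 (chr9:132891349-132945378), which encodes hamartin, the subunit that stabilises TSC2, stood at 6.07 and 6.41 in p53 off, 6.39 and 6.82 in p53 on, and 5.93 and 6.12 in recovery. It was higher in p53 on than in p53 off in both experiments, by 0.32 and 0.41, but the groups overlapped and the difference of 0.36 ± 0.24 was not called (limma, adjusted p = 0.559, and adjusted p = 0.219 with the block). TSC2 (chr16:2047985-2089491), which encodes tuberin, the GTPase-activating subunit for RHEB, stood at 6.79 and 6.62 in p53 off, 6.85 and 6.93 in p53 on, and 6.65 and 6.75 in recovery. Both p53 on arrays lay above both p53 off arrays, by as little as 0.06 in experiment 1, and the difference of 0.19 ± 0.19 was not called (limma, adjusted p = 0.736, and adjusted p = 0.544 with the block). The 95% interval for TSC2, -0.27 to 0.65, does not reach the differences of SESN1, SESN2, DDIT4 or PRKAB1. Over the set, 5 of 7 genes had p53 on arrays that were both above both p53 off arrays, against 22.6% of all genes tested, and 4 of 7 were higher by at least 1 unit in both experiments, against 1.4%.

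**Figure D1:**
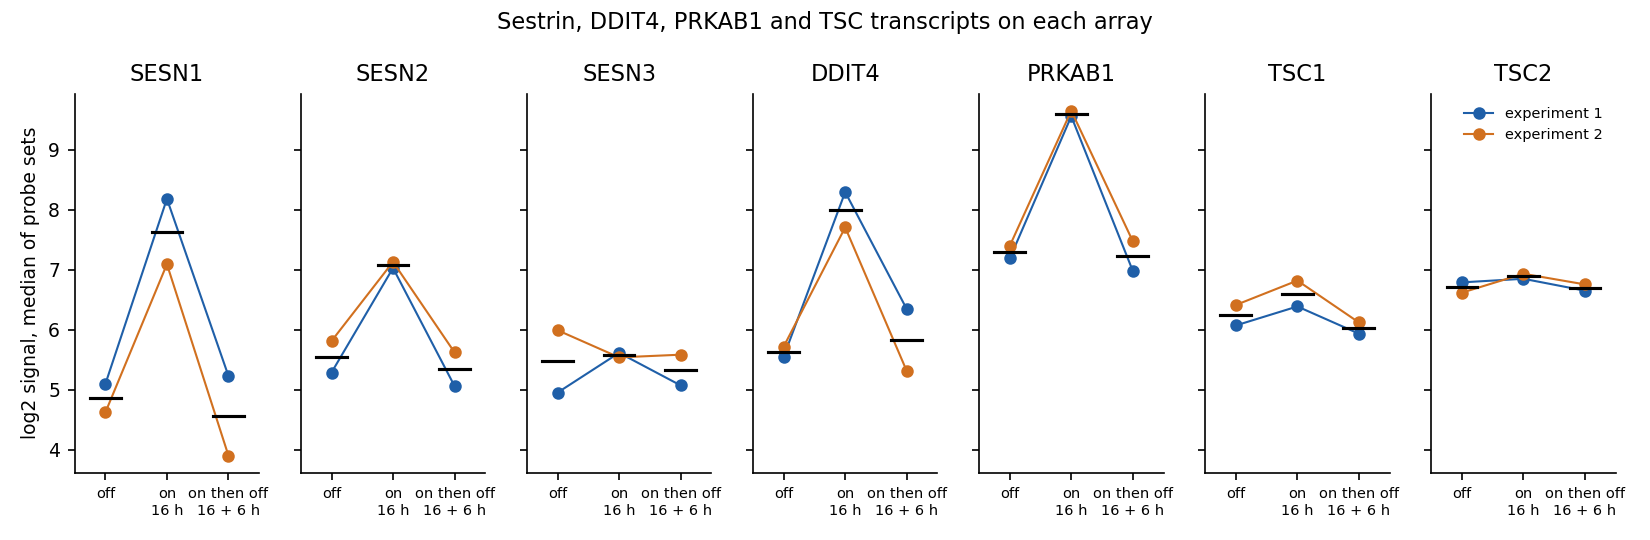
Log2 signal (vertical axis, median of a gene's probe sets) of each of the 7 genes in p53 off, p53 on (16 h) and recovery (16 h and then 6 h), with a line per experiment and a black bar for the mean of the 2 arrays. SESN1, SESN2, DDIT4 and PRKAB1 peak in p53 on in both experiments, whereas SESN3, TSC1 and TSC2 stay within about 1 unit on all 6 arrays.

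Each probe set was also followed on its own, since a gene median does not show their spread. Of 5 DDIT4 probe sets, 5 were at least 1 unit higher in p53 on than in p53 off in both experiments, as were 6 of 7 for PRKAB1, 11 of 13 for SESN1 and 6 of 11 for SESN2. Among all 224320 probe sets with 1 gene symbol the share was 2.41%, while the counts were 0 of 11 for SESN3, 0 of 26 for TSC1 and 0 of 41 for TSC2. The 5th DDIT4 probe set was dim throughout, at 0.92 and 0.95 in p53 off, 2.73 and 1.99 in p53 on, and 0.69 and 0.39 in recovery. The probe sets of a gene share its RNA and are not replicates, and the sources used here do not place them on exons.

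SESN1 held the widest contrast among its own probe sets. The 7th by identifier had the largest mean difference between p53 on and p53 off, with 3.88 in experiment 1 and 5.05 in experiment 2, and the 8th had 4.47 and 3.50. Its 12th probe set was bright on every array and flat, at 9.95 and 10.34 in p53 off, 9.87 and 10.69 in p53 on, and 9.77 and 10.71 in recovery. The 13th was also flat between p53 on and p53 off, at 0.07 and 0.32. The first probe set of PRKAB1 by identifier behaved in the same way, with p53 on higher by 0.46 and 0.21, whereas its remaining 6 were higher by between 1.64 and 2.57. In SESN2, 4 of the 5 probe sets under 1 unit were so in 1 experiment only, and 10 of 11 were higher in p53 on in both. For TSC1, 15 of 26 probe sets were higher in p53 on in both experiments and 4 were lower in both, and for TSC2 the counts were 11 and 13 of 41. Most of the TSC1 probe sets that were higher in both came from the 13th by identifier onward. With dim probe sets left out, the TSC1 difference was 0.54 and was not called (limma, adjusted p = 0.47).

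**Figure D2:**
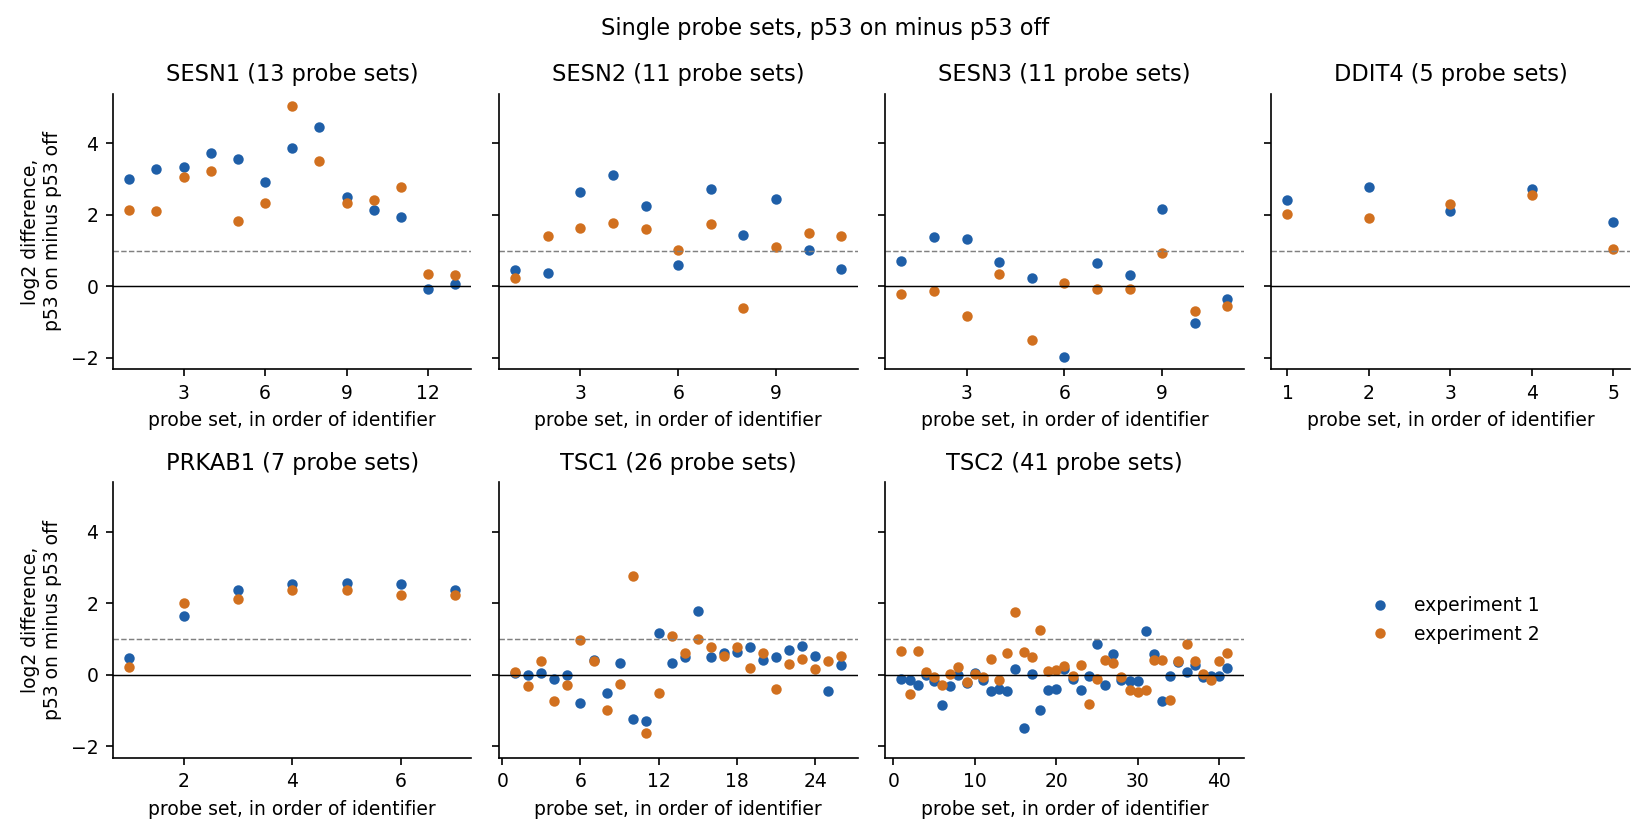
Difference between p53 on and p53 off (vertical axis, log2 units) for each probe set of the 7 genes, in order of identifier, in experiments 1 and 2, with a dashed line at 1. The first 11 probe sets of SESN1 lie well above the line and the last 2 lie near 0, while those of TSC2 scatter around 0 and those of TSC1 lie more often above 0 than below it.

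The second comparison asks whether 6 h of recovery reversed these differences. PRKAB1 fell in recovery relative to p53 on without and with the block, and SESN1, SESN2 and DDIT4 fell in the blocked fit, missing the threshold without it. That makes 1 of 7 genes called lower without the block, against 0.285% of all genes tested, and 4 of 7 with it, against 3.39%. None was called higher, against 0.143% and 3.84%. Recovery and the p53 on minus p53 off comparison share the p53 on arrays, so the sizes of the rise and of the fall are not independent.

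PRKAB1 was lower in recovery than in p53 on by 2.57 in experiment 1 and 2.17 in experiment 2. The fitted change was -2.37 ± 0.23, a 5.18-fold lower level (limma, adjusted p = 0.0179, and adjusted p = 0.00049 with the block). The call without the block was lost in each of the 6 fits that left out 1 array (adjusted p between 0.0686 and 0.13) and in a fit of the 2 groups alone (adjusted p = 0.0686). SESN1 had the largest difference of the set, -3.07 ± 0.51 for recovery minus p53 on, with -2.95 and -3.19 in the experiments (limma, adjusted p = 0.0746, and adjusted p = 0.000478 with the block). Only 6 of the 14025 genes had a lower value in this comparison. DDIT4 stood at -2.17 ± 0.37 (limma, adjusted p = 0.079, and adjusted p = 0.00407 with the block) and SESN2 at -1.74 ± 0.28 (limma, adjusted p = 0.0697, and adjusted p = 0.00224 with the block).

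TSC1 was lower in recovery than in p53 on in both experiments, by 0.45 and 0.70, with arrays that did not overlap. The difference of -0.58 ± 0.24 was not called (limma, adjusted p = 0.404, and adjusted p = 0.0836 with the block). For TSC2 it was -0.19 ± 0.19 and for SESN3 -0.25 ± 0.36 (limma, adjusted p = 0.819 and 0.893). In the set, 6 of 7 genes had recovery arrays that were both below both p53 on arrays, SESN3 being the exception, against 18.3% of all genes tested, and 4 of 7 were lower by at least 1 unit in both experiments, against 1.03%.

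The third comparison sets recovery against cells that never had p53 on. None of the 7 genes was called in limma, without or with the block, where 0.0285% and 0.599% of all genes tested were called, and at an unadjusted p under 0.05 the count was also 0 in both fits. The arrays of both groups overlapped for each gene, whereas 20.4% of all genes had both recovery arrays above both p53 off arrays and 14.5% had them below. Recovery minus p53 off lay between -0.29 for SESN1 and 0.19 for DDIT4. These intervals are wide without the block, from -1.50 to 0.92 for SESN1 and from -0.68 to 1.07 for DDIT4, and narrowest for TSC2, from -0.46 to 0.46. With the block they were -0.80 to 0.22 for SESN1, -0.63 to 0.22 for SESN2, -0.41 to 0.80 for DDIT4 and -0.47 to 0.35 for PRKAB1.

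The experiments differed in how far recovery went. DDIT4 in experiment 1 was 0.79 higher in recovery than in p53 off, which is 28.9% of its log2 rise in that experiment, while in experiment 2 it was 0.40 lower. SESN1 was 0.13 higher in experiment 1 and 0.72 lower in experiment 2. SESN2 was lower in recovery than in p53 off in both, by 0.22 and 0.19, and PRKAB1 was 0.21 lower and 0.08 higher. The difference between the experiments cannot be tested with 1 array of each group per experiment.

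**Figure D3:**
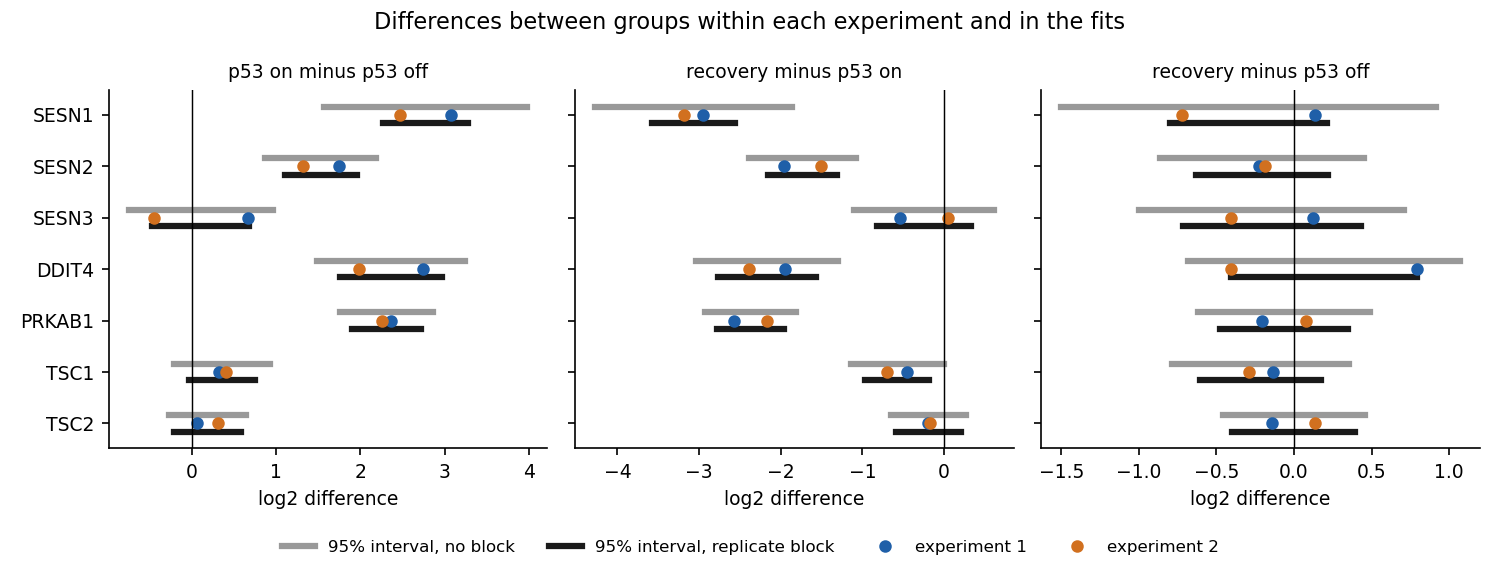
Log2 differences (horizontal axes) for p53 on minus p53 off, recovery minus p53 on and recovery minus p53 off, with a dot per experiment and bars for the 95% intervals without and with the replicate block. SESN1, SESN2, DDIT4 and PRKAB1 lie right of 0 in the first panel and left of 0 in the second, and all 7 intervals cross 0 in the third.

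The rest of the mTORC1 pathway, inducers of sestrins and DDIT4, and stress targets of those inducers were read from 9 lists of 115 genes. Of these, 104 were tested, among them 12 inducers and 16 stress targets, which are not mTORC1 pathway genes. The median difference of the 104 for p53 on minus p53 off was 0.03, against 0.02 for all genes tested and 1.53 for the set of 7. Of the 104, PHLDA3 alone was called without the block, and 7 rose and 2 fell with it. These are 6.73% and 1.92% of the 104, against 5.18% and 6.28% of all genes tested, so the share that rose was near the general one. In recovery minus p53 on, PHLDA3 alone was called without the block, and 1 rose and 6 fell with it, 0.962% and 5.77% of the 104 against 3.84% and 3.39% of all genes. In recovery minus p53 off, 0 were called in limma with or without the block, and 6 had an unadjusted p under 0.05 without it, 5.77% against 5.32% of all genes tested.

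Among 11 tested AMPK subunits and upstream kinases, PRKAG2, a gamma subunit that binds adenine nucleotides, was the only call in p53 on minus p53 off, with the block. PRKAB1 is not counted in that list. PRKAG2 stood at 5.14 and 5.26 in p53 off, 6.39 and 6.11 in p53 on, and 5.58 and 4.96 in recovery. It rose 2.06-fold in the blocked fit of p53 on over p53 off (1.05 ± 0.26, limma, adjusted p = 0.12, and adjusted p = 0.0163 with the block), and in recovery it was 0.98 lower than in p53 on (adjusted p = 0.188, and adjusted p = 0.0292 with the block). The other beta subunit gene, PRKAB2, differed by 0.35 ± 0.24 (limma, adjusted p = 0.561), and the catalytic alpha-1 gene PRKAA1 by -0.02 ± 0.22 (limma, adjusted p = 0.98). The list's median was 0.32.

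In the PI3K and AKT arm, upstream of the TSC complex, PHLDA3, a small PH-domain protein that competes with AKT for membrane lipid, was the 1 called gene of 14. It stood at 4.92 and 5.51 in p53 off, 6.79 and 6.98 in p53 on, and 4.40 and 4.49 in recovery. PHLDA3 rose 3.18-fold in p53 on (1.67 ± 0.25, limma, adjusted p = 0.0389) and fell in recovery relative to p53 on by 2.43 ± 0.25 log2 units (limma, adjusted p = 0.021). Both recovery arrays were below both p53 off arrays, a difference of -0.77 ± 0.25 that was not called (limma, adjusted p = 0.876, and adjusted p = 0.134 with the block).

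Of 13 Rag, Ragulator and amino acid sensor genes, 2 rose with the block and 0 without. They were RRAGC, a Rag GTPase, at 0.82 ± 0.21 (adjusted p = 0.13, and adjusted p = 0.0261 with the block), and BMT2, the S-adenosylmethionine sensor listed on the array as C7orf60, at 0.99 ± 0.22 (adjusted p = 0.0892, and adjusted p = 0.00927 with the block). BMT2 was lower by 1.04 in recovery than in p53 on (limma, adjusted p = 0.112, and adjusted p = 0.011 with the block). Of the 11 genes of GATOR1, GATOR2 and KICSTOR, the complexes through which sestrins act on the Rag GTPases, 0 were called in limma in either fit in any of the comparisons, and 1 had an unadjusted p under 0.05 in p53 on minus p53 off. Their median for p53 on minus p53 off was -0.28, and MIOS, a GATOR2 subunit with the smallest p among them, was at -0.79 ± 0.26 (limma, adjusted p = 0.211).

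The mTOR complexes themselves had 9 tested genes and no call in p53 on minus p53 off without or with the block, and 2 had an unadjusted p under 0.05. The kinase gene MTOR was at -0.37 ± 0.20 (limma, adjusted p = 0.46) and RPTOR, the raptor gene, at -0.08 ± 0.20 (limma, adjusted p = 0.912). PRR5L, which encodes an mTORC2-associated protein, was higher in recovery than in p53 on by 1.19 ± 0.20 (limma, adjusted p = 0.0803, and adjusted p = 0.00878 with the block). Both recovery arrays, at 8.16 and 8.16, lay above both p53 on arrays, at 7.12 and 6.80. RHEB, the TSC complex subunit gene TBC1D7 and the DDIT4 paralog DDIT4L made a list of 3 tested genes with 0 calls in either fit and 0 with an unadjusted p under 0.05, and DDIT4L was at 0.30 ± 0.32 (limma, adjusted p = 0.744).

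PDCD4, a translation inhibitor that S6 kinase marks for destruction, was the 1 call among 15 substrates and outputs of mTORC1, with the block only. It stood at 6.35 and 6.88 in p53 off, 7.51 and 8.36 in p53 on, and 7.02 and 7.39 in recovery. Its difference for p53 on minus p53 off was 1.32 ± 0.34 (limma, adjusted p = 0.128, and adjusted p = 0.00427 with the block). Recovery minus p53 on was -0.73 ± 0.34 and was not called (limma, adjusted p = 0.457, and adjusted p = 0.0508 with the block). All 6 PDCD4 values kept the same order of experiments, with experiment 2 above experiment 1 in each group.

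Transcription factors known to induce sestrins or DDIT4 showed no call among 12 tested genes in p53 on minus p53 off in either fit, and 2 had an unadjusted p under 0.05. ATF4 was at -0.06 ± 0.63, HIF1A at 0.04 ± 0.25, NFE2L2 at -0.16 ± 0.29 and FOXO3 at 0.12 ± 0.21 (limma, adjusted p between 0.863 and 0.983). The experiments were far apart for ATF4, at 7.24 and 5.95 in p53 off. Within them its difference was 0.05 and -0.16 (limma, adjusted p = 0.878 with the block). ATF3, a stress-induced factor, was at 0.82 ± 0.27 (limma, adjusted p = 0.211), and it was lower in recovery than in p53 on by 0.98 (limma, adjusted p = 0.196, and adjusted p = 0.0451 with the block). In recovery minus p53 off the smallest p of this list was that of DDIT3. It was 0.99 ± 0.29 higher in recovery, by 0.62 and 1.36 in the experiments, and was not called (limma, adjusted p = 0.823, and adjusted p = 0.121 with the block). These are transcript levels, and several of these factors are controlled mainly as proteins. Of 16 tested stress targets that share those inducers, 2 rose and 2 fell with the block. SQSTM1, an autophagy receptor, rose by 0.93 ± 0.22 (adjusted p = 0.104, and adjusted p = 0.0165 with the block) and the hypoxia-responsive peptide gene ADM by 0.73 ± 0.28 (adjusted p = 0.282, and adjusted p = 0.0354 with the block). Other hypoxia-responsive genes of the list were not called. VEGFA was at 0.34 and CA9 at -0.09 (limma, adjusted p = 0.253 and 0.799 with the block, 0.479 and 0.949 without), and BNIP3 was under the filter. FKBP5, a glucocorticoid target, fell by 0.84 ± 0.33 and GCLM, a glutathione synthesis gene, by 0.82 ± 0.25 (limma, adjusted p = 0.0313 and 0.0202 with the block, 0.286 and 0.18 without). In recovery minus p53 on, ADM and PER1, a clock gene induced by glucocorticoids, fell with the block, by 0.76 ± 0.28 and 0.89 ± 0.24 (limma, adjusted p = 0.0414 and 0.0404 with the block, 0.333 and 0.184 without). PER1 and FKBP5 moved in opposite directions at each step. PER1 was 0.75 ± 0.24 higher in p53 on than in p53 off, and FKBP5 was 0.70 ± 0.33 higher in recovery than in p53 on. Neither of these rises was called (limma, adjusted p = 0.0547 and 0.0757 with the block, 0.193 and 0.465 without). ASNS, TRIB3 and CHAC1, targets of ATF4, differed by 0.14, 0.39 and 0.75 and were not called (limma, adjusted p between 0.271 and 0.836).

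**Figure D4:**
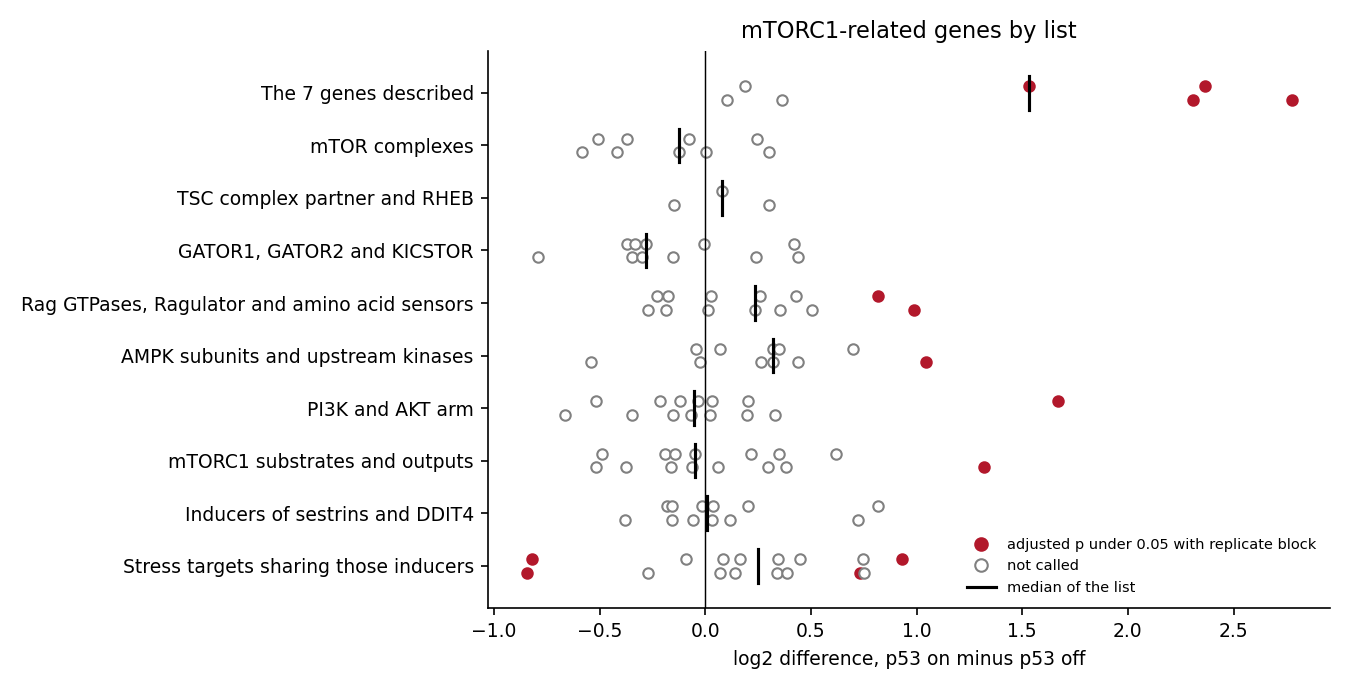
Log2 difference between p53 on and p53 off (horizontal axis) of the 7 genes (top row) and of 104 genes in 9 lists. The lists cover the mTORC1 pathway, inducers of sestrins and DDIT4, and stress targets of those inducers. Filled dots mark genes called with the replicate block, and a black line marks each list's median. The 4 called genes of the top row lie between 1.53 and 2.77, and PHLDA3 at 1.67 and PDCD4 at 1.32 are the highest of the other lists.

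Genes with a similar course were ranked by Pearson's r over the 6 arrays, after subtracting the mean of each experiment, among 803 genes whose group means spanned at least 1 unit. Small RNAs, pseudogenes and loci with provisional names, such as those of the C7orf60 kind, were left out of the ranking. With 3 groups of 2 arrays, many genes that peak in p53 on reach a high r, so these values describe the ranking only. The 3 genes nearest to SESN1 were TNFRSF10B, a death receptor gene (r = 0.9984), TBC1D8 and TAF3, and those nearest to SESN2 were PRKX (r = 0.9999), BLNK and LIMA1. PRKAB1 was followed by GDF15, a secreted stress cytokine (r = 0.9973), BTG2, an antiproliferative gene, and CASZ1. For DDIT4 the nearest gene was PRKAG2 (r = 0.9964), the AMPK gamma subunit described with the AMPK genes, ahead of SLFN5 and DGKA. Group means of PRKAG2 were 5.20 in p53 off, 6.25 in p53 on and 5.27 in recovery, so its excursion was smaller than that of DDIT4. SESN3, TSC1 and TSC2 were not ranked, since their own group means spanned less than 1 unit.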

How the data were processed

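Total RNA of 6 samples was hybridised to Affymetrix Gene 1.0 ST arrays, per the labels. The authors deposited log2 signals per probe set, judged to be log2 from their range of -0.85 to 13.14; the sources used here do not name the program, the background step or the normalization. Column medians of 5.24 to 5.31 were left unscaled. Of 257430 probe sets, 224320 carried 1 symbol, and their median per gene was used. Genes in the lowest 25% by mean signal were left out. Groups were compared with limma 3.58.1 (R 4.3.3) over all 6 arrays, with Benjamini-Hochberg adjustment over all genes tested and a threshold of 0.05, after the fit had been tested on simulated data. Errors are standard errors, and arrays have no read depth, so their number limits the precision.

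The experiment number in the labels was taken to pair the arrays, and same-numbered arrays deviated together from their group means (r = 0.496, 0.63 and 0.551 across genes for the pairs of groups). Fits with this replicate block are printed beside the others. Nothing says that the samples were independent beyond the experiment number, so p-values measure the spread between these samples. The members and lists were chosen with earlier results of these data known. From each list the text names up to 3 called genes with the largest change, or the gene with the smallest p. Some other listed genes (PRKAB2, PRKAA1, MTOR, RPTOR, ATF4, HIF1A, NFE2L2, FOXO3, ADM, VEGFA, CA9, BNIP3, ASNS, TRIB3, CHAC1) were picked for their role after their values were seen. Alternatives covered the filter, the gene summary, the normalization, the spread model and the arrays in the fit. Sequences are RefSeq's (GRCh38.p14), matched by symbol.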

Additional observations from a re-analysis of the deposited data

How the results depend on the processing

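The differences of SESN1, SESN2, DDIT4, PRKAB1 and TSC1 in p53 on minus p53 off and in recovery minus p53 on kept their sign under the 15 alternatives. With the replicate block, 726 genes were higher and 881 lower in p53 on minus p53 off (126 and 82 without), 539 and 476 in recovery minus p53 on (20 and 40), and 29 and 55 in recovery minus p53 off (4 and 0). The block called 4 members higher and then 4 lower, as did the mean of probe sets. That mean gave 264 genes higher and 214 lower in p53 on minus p53 off and 80 and 102 in recovery minus p53 on. Without the dim filter 83 were higher and 30 lower, with 1 member called, and 11 were higher in recovery minus p53 on. Without dim probe sets 53 were lower, and 2 members fell in recovery minus p53 on. Fits of only the groups compared gave 46 and 4 genes, then 0 and 0, with 0 members lower. Leaving out 1 array gave 3 to 46 genes higher and 0 to 5 lower with 0 to 2 members higher, then 0 to 0 higher and 0 to 4 lower with 0 to 0 members, and 1 to 4 higher in recovery minus p53 off. The 4 with no member called in p53 on minus p53 off were those without an array of p53 off or p53 on. All sign changes were of uncalled differences. For recovery minus p53 on, TSC2 was 0.029 with the mean of probe sets. For recovery minus p53 off, TSC2 was 0.06 with that mean and 0.017 with quantile normalization, and PRKAB1 was 0.029 with the mean. Leaving out 1 array moved SESN3 between -0.414 and 0.624 in p53 on minus p53 off and between -0.504 and 0.007 in recovery minus p53 on. In recovery minus p53 off it moved SESN1 between -0.956 and 0.371, SESN2 between -0.486 and 0.074, SESN3 between -0.662 and 0.376, DDIT4 between -0.321 and 0.71, TSC2 between -0.087 and 0.085 and PRKAB1 between -0.311 and 0.183. The sign turned without p53 off replicate 1 for SESN3 in p53 on minus p53 off and, in recovery minus p53 off, for TSC2. It turned in recovery minus p53 off for SESN2, SESN3 and PRKAB1 without p53 off replicate 2, for SESN2, SESN3, DDIT4, TSC2 and PRKAB1 without recovery replicate 1, and for SESN1 without recovery replicate 2. It also turned for SESN3 in recovery minus p53 on without recovery replicate 1. A lone array in a group is assumed to vary like the other groups, and fits without 1 array have fewer samples. The cause of the other shifts was not tested. Precision is limited by 2 arrays a group.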
